A study of Mus musculus with 4 samples.

Results

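The genes described are 10 subunits of the vacuolar ATPase (V-ATPase), of 48587 genes in the count table, and they were taken by gene symbol. Atp6v1a was picked from its fall in the same comparison of hairpins, so its difference between the groups is a description and carries no test. The other 9 members (Atp6v1b2, Atp6v1c1, Atp6v1d, Atp6v1e1, Atp6v1f, Atp6v1g1, Atp6v1h, Atp6v0d1 and Atp6v0a1) are its partners in the pump. The libraries are mRNA-seq of primary vascular smooth muscle cells (VSMCs) that grew out of descending aortas of adult C57BL/6J mice, after removal of the adventitia and scraping of the endothelium. All cells were transduced with a lentivirus that expresses a hairpin, with 1 hairpin sequence per group. The 2 shCTR libraries came from cells with a nontargeting hairpin against a plant microRNA sequence, and the 2 shMettl14 libraries from cells with a hairpin against Mettl14, a subunit of the complex that writes m6A onto mRNA. Each group has a library labelled A and another labelled B, and the comparison asks how loss of Mettl14 affected the VSMC transcriptome. The labels do not say that A and B are separate cultures, so the p-values measure only the spread between these libraries.

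The V-ATPase is a rotary pump that uses ATP to move protons into lysosomes, endosomes, the Golgi and secretory vesicles. Its V1 sector sits in the cytosol, where a ring of alternating A and B subunits hydrolyses ATP and turns a central stalk. Its V0 sector lies in the membrane, where a ring of small proteolipid subunits turns against the large a subunit and carries protons across. The 2 sectors come apart and rejoin under regulation, and the assembled pump is also part of the machinery through which mTORC1 senses amino acids at the lysosome.

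Totals ran from 114343653 to 124815868 counts per library, and a count of 0 allows up to 3 counts, which is at most 0.0262 counts per 1000000 (CPM). Mettl14, the targeted gene, had 2050 and 2154 counts in shCTR A and B, against 546 and 568 in shMettl14 A and B. Its mean level in shMettl14 was 23.6% of that in shCTR. Over 18916 tested genes the libraries resembled each other more by letter than by hairpin. Pearson's r of log2 CPM across genes was 0.985 between the A libraries and 0.977 between the B libraries, against 0.953 between the shCTR libraries and 0.969 between the shMettl14 libraries. All 8 smooth muscle markers were detected in each library, with summed levels of 5772 to 6799 CPM in shCTR and 4442 to 4811 CPM in shMettl14. The 6 endothelial markers summed to 1661 CPM in shCTR A, 3777 in shCTR B, 1564 in shMettl14 A and 2274 in shMettl14 B. Emcn, Pecam1 and Cdh5 were abundant in all 4 libraries and most so in shCTR B. They made up most of each sum, while Tek and Kdr were at or below 10.94 CPM and Vwf at or below 18.92 CPM. The 6 adventitial fibroblast markers summed to 667.6 to 796.8 CPM, mostly Cd34 and Ly6a. Pdgfra had 7.93 to 14.5 CPM, and Dpt, Pi16 and Lum were at or below 0.9685 CPM. Macrophage markers summed to 11.0 to 14.5 CPM, with Adgre1 and Itgam at or below 0.108 CPM. The summed markers of osteoclasts, the cells best known for abundant V-ATPase, were 38.4 to 49.4 CPM and consisted mostly of Ctsk, while Dcstamp had 0 counts in all 4 libraries. The part of these other cells in the results below was not tested.

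The MiT/TFE factors (Tfeb, Tfe3, Mitf and Tfec) are known to bind an extended E-box in the promoters of many lysosomal and V-ATPase genes, so the subunit promoters that hold its core were looked up. RefSeq promoters on GRCm38.p6, 250 bases before to 50 after a start site, matched 6 of the 10 members and 13 of 16 other subunit genes. The palindrome CACGTG, which reads the same on both strands, was in 2 of the 6 member promoters and in 7.15% of all 32851 promoters. It was also in 2 of 18 promoters of the other subunit genes (11.1%) and in 6 of 18 promoters of lysosomal genes (33.3%). The longer TCACGTGA, which contains it, was in the same 2 members and in 0.974% of all promoters. Of the other subunit promoters 1 of 18 held it (5.56%), and of the lysosomal promoters 3 of 18 (16.7%), so neither word was particular to the members. The windows of 30 bases below are written on the strand of the gene, with the core E-box in capitals. They lie at chr16:44139373-44139402 on the minus strand, chr8:105566050-105566079 on the minus strand and chr17:26676387-26676416 on the plus strand, in this order.
Atp6v1a: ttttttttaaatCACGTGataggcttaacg
Atp6v0d1: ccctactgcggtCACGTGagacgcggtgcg
Atp6v0e: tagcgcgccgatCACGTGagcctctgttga
The core begins 131 bases before the RefSeq start site of Atp6v1a, 3 before that of Atp6v0d1 and 3 after that of Atp6v0e, a V0 subunit gene outside the 10 members. By GENCODE M21 the Atp6v1a window is intronic, since that annotation starts the gene further upstream. The Atp6v0d1 window falls in no annotated gene, and the Atp6v0e window touches an annotated exon and UTR of Atp6v0e. Atp6v0b, which codes for a proteolipid, had the core at 2 places without the extension. A match of letters is a description and shows no binding.

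Atp6v1a codes for the A subunit, the catalytic subunit that hydrolyses ATP in V1 (ENSMUSG00000052459, GRCm38 chr16:44085402-44139705, minus strand). It had 22351 counts in shCTR A and 18697 in shCTR B, against 7370 in shMettl14 A and 8912 in shMettl14 B. After TMM scaling of library sizes these were 196.8, 173.1, 62.1 and 68.5 CPM. Both shMettl14 libraries were far below both shCTR libraries, and the 2 libraries of each hairpin lay close together. The means were 184.9 ± 16.7 CPM (SD, n = 2) in shCTR and 65.3 ± 4.56 CPM (SD, n = 2) in shMettl14, so that the level was 35.3% of that in shCTR. The log2 fold change was -1.50 (SE 0.20), and the log2 ratio of the A libraries was -1.66 and that of the B libraries -1.34. Among 9098 genes with a mean of at least 10 CPM, it was the lowest log2 fold change but for that of Mettl14. Among all 18916 tested genes its rank from the lowest was 134. In bulk RNA, fewer cells that express a gene and less of its RNA per cell cannot be told apart.

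**Figure D1:**
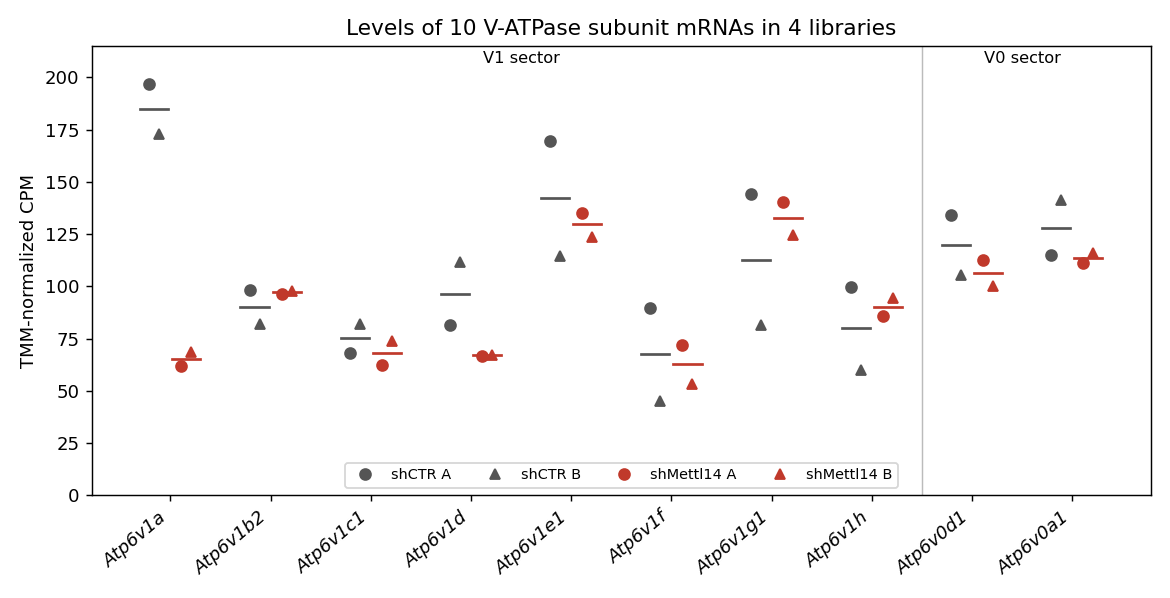
TMM-normalized CPM (y axis) of the 10 subunit mRNAs (x axis) in each library, gray for shCTR and red for shMettl14, circles for A and triangles for B, with horizontal lines at the group means. Atp6v1a sits at 196.8 and 173.1 CPM in shCTR and at 62.1 and 68.5 CPM in shMettl14, and Atp6v1d is the only other member whose groups do not overlap.

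None of the 9 other members passed an adjusted p of 0.05 with edgeR's quasi-likelihood test, none passed an unadjusted p of 0.05, and DESeq2 also called 0 of 9 by either measure. Of all 18916 tested genes, 0% passed the adjusted threshold. That includes Mettl14, the target itself, whose adjusted p was 1 in this edgeR fit and 3.05e-07 with DESeq2, so an adjusted p of 1 here says little about whether a gene changed. At an unadjusted p under 0.05, 1.01% were lower and 0.656% higher in shMettl14. All 10 members passed the filter on low counts. The median log2 fold change of the 10 was -0.14, beside 0.01 over all tested genes, and without shCTR A it was 0.10, of the opposite sign. Of the 9, 4 were lower in shMettl14 within both letters (Atp6v1c1, Atp6v1d, Atp6v0d1 and Atp6v0a1) and 0 were higher within both, where 27.6% of all tested genes were lower within both and 30.0% higher within both. The groups of Atp6v1d alone among the 9 did not overlap, with shMettl14 lower, as in 13.3% of all tested genes, while 14.7% of all tested genes had shMettl14 higher without overlap.

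The B subunit alternates with A in the hydrolytic ring. Its gene Atp6v1b2 had 98.5 and 81.9 CPM in shCTR A and B, and 96.4 and 97.7 CPM in shMettl14 A and B. The shMettl14 libraries lay between the 2 shCTR libraries. The log2 fold change was 0.11 (SE 0.20, edgeR adjusted p = 1).

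The central stalk that turns inside the ring is made of subunits D and F. Atp6v1d had 81.3 CPM in shCTR A, 111.7 in shCTR B, 66.7 in shMettl14 A and 67.2 in shMettl14 B. Both shMettl14 libraries were below both shCTR libraries, but the shCTR libraries were also far apart from each other. The shMettl14 level was 69.4% of that in shCTR, with a log2 fold change of -0.53 (SE 0.23), an unadjusted p of 0.072 and an adjusted p of 1 by edgeR. The log2 ratio was -0.29 between the A libraries and -0.73 between the B libraries. Atp6v1f had 89.9 and 44.9 CPM in shCTR A and B and 72.1 and 53.5 CPM in shMettl14 A and B. The spread between the shCTR libraries enclosed both shMettl14 values, and the log2 ratio changed sign between letters, from -0.32 in A to 0.25 in B.

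The peripheral stalks hold the ring still and are built of E and G subunits, with C at the junction to V0. Atp6v1e1 had 169.6, 114.6, 135.3 and 123.8 CPM in shCTR A, shCTR B, shMettl14 A and shMettl14 B, and Atp6v1g1 had 144.0, 81.5, 140.4 and 124.8 CPM in the same order. For both genes shCTR A was the highest and shCTR B the lowest library, with shMettl14 in between. Their log2 fold changes were -0.13 (SE 0.26) and 0.23 (SE 0.32). Atp6v1c1, whose product leaves V1 when the sectors separate, had 68.4, 81.8, 62.2 and 73.9 CPM in that order. It was lower in shMettl14 by similar amounts in both letters, at -0.14 in A and -0.15 in B, and the groups overlapped. Atp6v1h codes for the H subunit, which restrains ATP hydrolysis by free V1, and had 99.6, 60.1, 85.9 and 94.6 CPM in that order. Its log2 ratio was -0.21 in letter A and 0.65 in letter B.

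Of the V0 members, Atp6v0d1 codes for the d subunit that joins the central stalk to the proteolipid ring. It had 134.0, 105.4, 112.4 and 100.3 CPM in shCTR A, shCTR B, shMettl14 A and shMettl14 B. Atp6v0a1, an isoform of the a subunit that forms the proton path, had 114.8, 141.2, 111.3 and 116.1 CPM in that order. Both were slightly lower in shMettl14 within each letter, and both pairs of groups overlapped. The 2 log2 fold changes were -0.17, with SEs of 0.22 for Atp6v0d1 and 0.21 for Atp6v0a1.

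**Figure D2:**
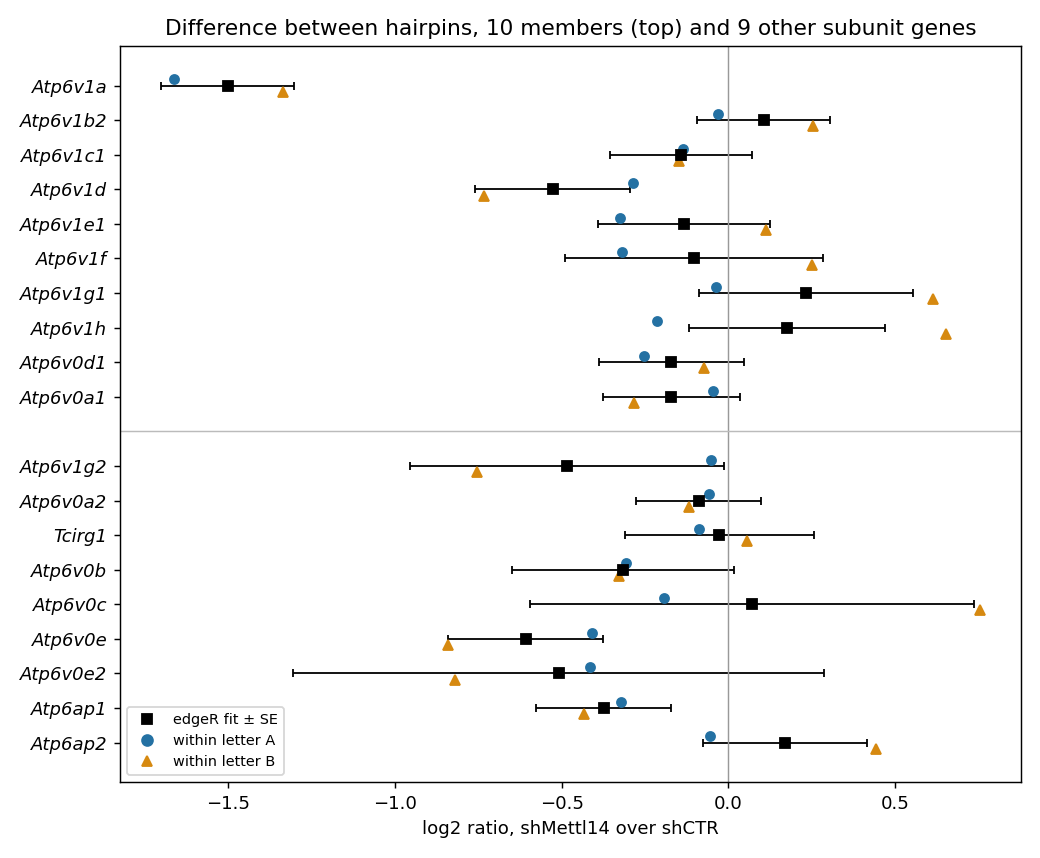
Log2 ratio of shMettl14 over shCTR (x axis) for the 10 members and for 9 other subunit genes with a mean of at least 1 CPM (y axis), with the edgeR estimate and its SE as black squares and bars and the ratio within letters A and B in blue circles and orange triangles. Atp6v1a lies at -1.50, while the other 9 members lie between -0.53 and 0.23, 5 of them with letters on opposite sides of 0.

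The members also varied between libraries of the same hairpin. In shCTR, B was below A by 1.0 on the log2 scale for Atp6v1f, 0.82 for Atp6v1g1, 0.73 for Atp6v1h and 0.57 for Atp6v1e1, and it was above A by 0.46 for Atp6v1d. These differences between libraries of the same hairpin were larger than the difference between hairpins for each of these genes but Atp6v1d. Atp6v1a differed between the shCTR letters by only -0.18. Across the 10 members, Spearman's rho between exon length and the log2 ratio of B over A was 0.52 in shCTR and 0.89 in shMettl14. Across the 19 subunit genes with a mean of at least 1 CPM it was 0.42 and 0.59. Across 18276 tested genes with a length it was 0.16 and 0.12. The members are points from the same libraries and are not replicates, and the part of transcript length in the difference between letters was not tested. The shCTR B library also had the fewest genes with a count (21736, against 24570 to 25268) and the highest endothelial sum.

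A ratio of subunits within a library does not depend on how libraries are scaled. The log2 level of Atp6v1a less the mean log2 level of the other 7 V1 members was 0.94 in shCTR A, 1.14 in shCTR B, -0.53 in shMettl14 A and -0.35 in shMettl14 B. Atp6v1a thus lay above the average of its V1 partners in both shCTR libraries and below it in both shMettl14 libraries. The shift was -1.47 in letter A and -1.48 in letter B, a 2.78-fold and a 2.79-fold drop in this ratio. Atp6v1a alone differed by -1.66 in letter A and -1.34 in letter B. The closeness of the 2 shifts therefore rests also on how the partners differed between letters, and it is no measure of how well the fall replicated. For the other V1 members the same quantity shifted by between -0.79 and 0.79 within a letter, the extremes being Atp6v1d and Atp6v1h in letter B, and these shifts contain the fall of Atp6v1a among their partners.

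**Figure D3:**
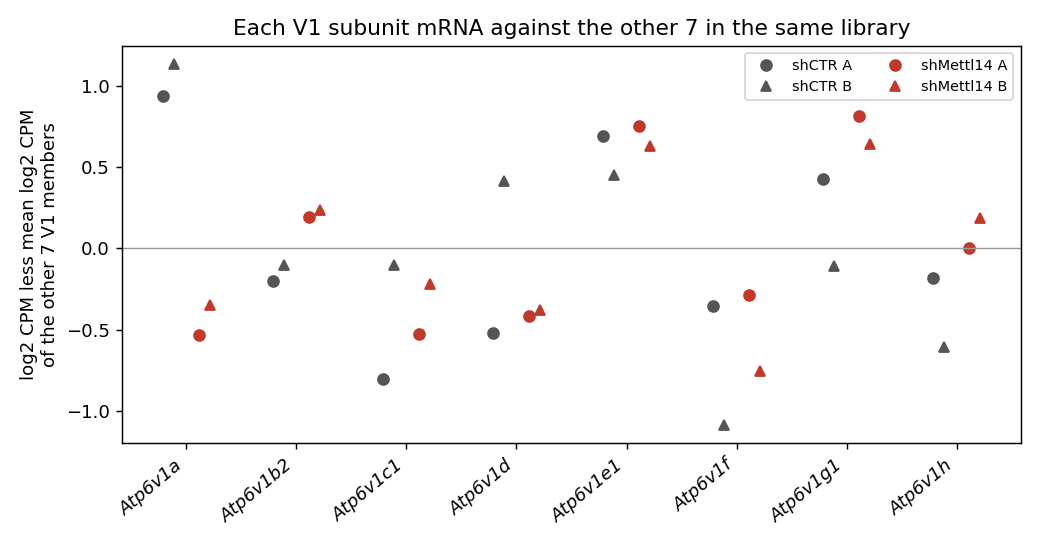
Log2 CPM of each V1 member less the mean log2 CPM of the other 7 V1 members (y axis) in each library, with colors for the hairpin and symbols for the letter. Atp6v1a is at 0.94 and 1.14 in shCTR and at -0.53 and -0.35 in shMettl14, and no other V1 member moves so far in both letters.

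To compare levels between subunits, CPM was divided by the exon length of each gene in kb. This length merges the exons of all annotated transcripts of a gene, 9.746 kb for Atp6v1h and 1.135 kb for Atp6v1g1. The order of genes on this scale therefore depends on annotated length as well as on mRNA level. On this scale Atp6v1g1 was the highest of the 10 members in every library and Atp6v1h the lowest. The mean level of Atp6v1a was 30.6 ± 2.77 CPM per kb (SD, n = 2) in shCTR and 10.8 ± 0.755 CPM per kb (SD, n = 2) in shMettl14. Atp6v1a ranked 5 in shCTR A and 4 in shCTR B, and it ranked 9 in both shMettl14 libraries, above Atp6v1h alone. Its ring partner Atp6v1b2 had 17.0 CPM per kb in shCTR and 18.3 CPM per kb in shMettl14, so that the mRNA of A was above that of B in shCTR and below it in shMettl14. The other means in shCTR ran from 8.19 CPM per kb for Atp6v1h to 99.4 CPM per kb for Atp6v1g1, with 66.8 for Atp6v0d1, 63.4 for Atp6v1f, 34.6 for Atp6v1e1, 21.0 for Atp6v1d, 19.5 for Atp6v0a1 and 13.4 for Atp6v1c1. Neighbors in this order such as Atp6v0d1 and Atp6v1f, or Atp6v1d and Atp6v0a1, exchanged places between libraries.

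**Figure D4:**
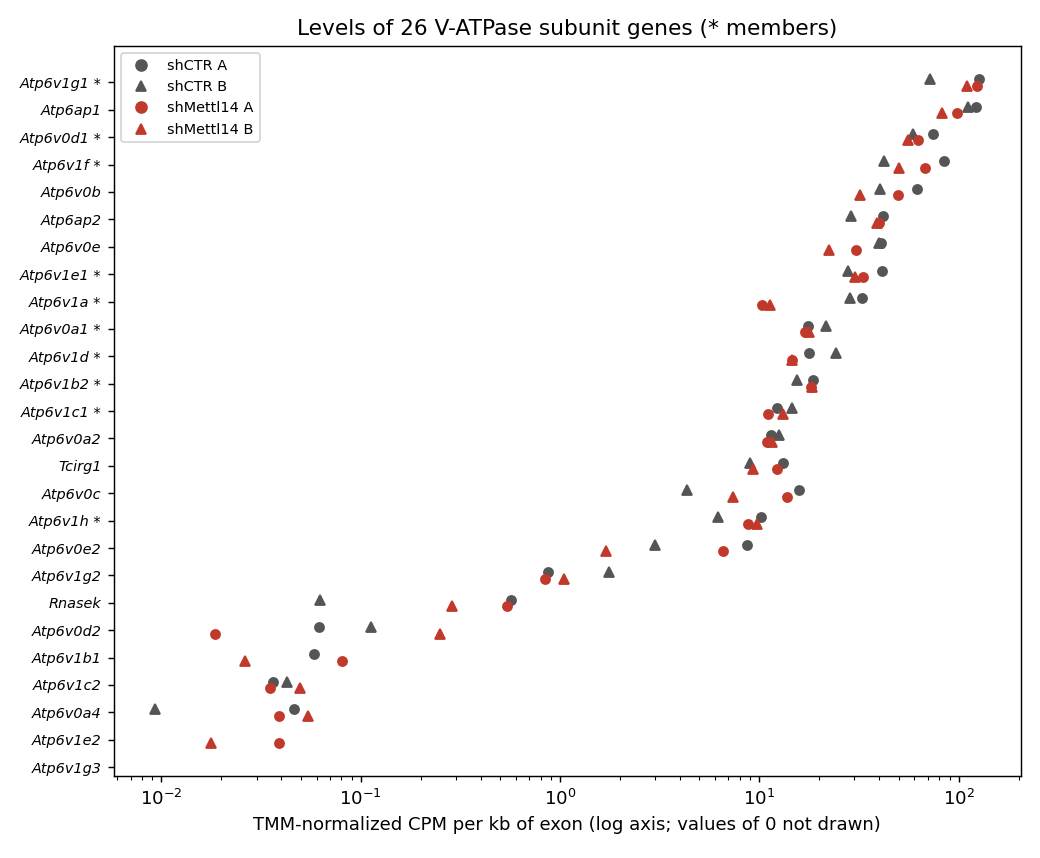
TMM-normalized CPM per kb of exon (x axis, log scale) of the 26 subunit genes (y axis, the 10 members with an asterisk) in each library, with colors for the hairpin and symbols for the letter, and values of 0 not drawn. The members lie between Atp6v1g1 at the top and Atp6v1h, and the red points of Atp6v1a lie apart from its gray points at 10.3 and 11.3 against 32.6 and 28.6.

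Several subunits have paralogs with restricted expression in other tissues, and the members were the main form of each V1 subunit that has paralogs. Per kb, Atp6v1b2 made up at least 99.56% of the B subunit mRNA in each library, Atp6v1c1 at least 99.63% of C, Atp6v1e1 at least 99.88% of E, Atp6v1g1 at least 97.61% of G and Atp6v0d1 at least 99.56% of d. The kidney and epididymis form Atp6v1b1 had 29, 0, 42 and 15 counts in shCTR A, shCTR B, shMettl14 A and shMettl14 B. Atp6v1c2 (9, 10, 9 and 14 counts), Atp6v0a4 (26, 5, 23 and 35) and the osteoclast form Atp6v0d2 (19, 33, 6 and 88) were as rare. Atp6v1e2 had 0, 0, 6 and 3 counts and Atp6v1g3 had 0 in every library, and neither passed the filter. Atp6v1g2, best known from neurons, had 2.18, 4.42, 2.11 and 2.61 CPM.

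The a subunit was a mixture of isoforms. Atp6v0a1 accounted for 41.7% to 50.1% of a subunit mRNA per kb, Atp6v0a2 for 27.1% to 29.8% and Tcirg1, the a3 isoform that osteoclasts need to resorb bone, for 20.8% to 31.1%. These shares varied with the letters and overlapped between hairpins. Atp6v0a2 had 76.7, 84.0, 73.7 and 77.4 CPM in shCTR A, shCTR B, shMettl14 A and shMettl14 B, and Tcirg1 had 60.2, 41.1, 56.7 and 42.8 CPM. Their log2 fold changes were -0.09 (SE 0.19) and -0.03 (SE 0.28).

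Among the other 16 subunit genes, 14 were tested and 0 passed an adjusted p of 0.05 by edgeR or DESeq2. At an unadjusted p under 0.05 edgeR called 1 (Atp6v0e) and DESeq2 0, beside 1.67% and 1.52% of all genes that each tested. With at least 10 counts required in every library, edgeR called 0 of these subunit genes. Atp6v0e codes for the small e subunit of V0 and had 150.9 and 148.7 CPM in shCTR A and B, and 113.6 and 82.9 CPM in shMettl14 A and B. Both shMettl14 libraries were below the closely matched shCTR libraries, with a log2 fold change of -0.61 (SE 0.23), an unadjusted p of 0.047 and an adjusted p of 1 by edgeR. Its paralog Atp6v0e2 had 20.7, 7.17, 15.6 and 4.05 CPM and made up 17.6% of e subunit mRNA per kb in both A libraries, but 6.99% to 7.08% in the B libraries.

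Atp6ap1, an accessory subunit needed for assembly of V0, was the highest of the 26 genes in CPM, with 370.8 and 337.0 CPM in shCTR A and B and 296.9 and 249.4 CPM in shMettl14 A and B. The groups did not overlap, with shMettl14 lower, as in 2 of the 14 tested other subunit genes and 13.3% of all tested genes. The log2 fold change was -0.37 (SE 0.20), with an unadjusted p of 0.12 and an adjusted p of 1 by edgeR. Atp6ap2, the accessory subunit also known as the prorenin receptor, had 108.8, 75.2, 104.8 and 102.3 CPM in shCTR A, shCTR B, shMettl14 A and shMettl14 B. The proteolipid genes had 126.5, 82.5, 102.2 and 65.7 CPM for Atp6v0b, and 53.4, 14.7, 46.7 and 24.8 CPM for Atp6v0c. For both the A libraries were above the B libraries whichever the hairpin. The median log2 fold change of the 14 tested genes was 0.02, with 7 lower and 7 higher, and over the 9 with a mean of at least 1 CPM it was -0.32, with 7 lower and 2 higher. Within both letters 6 of the 14 were lower and 1 was higher, against 27.6% and 30.0% of all tested genes.

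Rnasek, a further V0 component, had 57, 6, 57 and 33 counts in shCTR A, shCTR B, shMettl14 A and shMettl14 B, and its values are uncertain because 67.7% of its exon bases overlap Gm21988 on the same strand. Reads of Atp6v1g1 could be shared with the pseudogene Gm13453, which matches it at 99.4% over 357 bases and held 19 to 34 counts per library. Atp6v1f has a processed pseudogene that matches at 98.5% over 202 bases. Atp6v0c and Atp6ap2 also have close pseudogenes. No copy with at least 95% identity over 150 bases was found for Atp6v1a, and no other gene overlaps its exons.

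Assembly of the pump depends on chaperones of the endoplasmic reticulum (Vma21, Tmem199 and Ccdc115). A complex that rejoins V1 and V0 (Dmxl1, Dmxl2, Wdr7 and Rogdi) and proteins with a TLDc domain regulate the pump. Of these 12 genes of assembly and regulation, 0 passed an adjusted p of 0.05 and 0 an unadjusted p of 0.05 by edgeR. Their median was 0.12 on the log2 scale, with 4 lower and 8 higher. Rogdi had 8.73, 9.81, 6.70 and 5.27 CPM in shCTR A, shCTR B, shMettl14 A and shMettl14 B (log2 fold change -0.63, SE 0.29), and Vma21 had 49.4, 50.2, 36.8 and 41.7 CPM (-0.34, SE 0.19). For both genes the shMettl14 libraries were below the shCTR libraries, as for 3 of the 12 genes and 13.3% of all tested genes. The largest positive differences were those of Dmxl2 (0.44, SE 0.31) and Dmxl1 (0.35, SE 0.32). Dmxl2 had 10.1, 16.3, 16.8 and 19.1 CPM in the same order, with each shMettl14 library above each shCTR library, while the groups of Dmxl1 overlapped. Groups lay apart with shMettl14 higher for 2 of the 12 genes and for 14.7% of all tested genes.

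The pump works beside chloride and cation transport proteins that set the voltage and calcium of the organelle. Of 10 such genes, 5 were lower and 5 higher, with a median of 0.03, and 0 passed either threshold. The extremes were Mcoln1 (-0.21) and Clcn5 (-0.20), and Clcn4 (0.25) and Clcn3 (0.13). Of 14 genes of the Ragulator and mTORC1, through which the V-ATPase is linked to amino acid sensing, 10 were lower and 4 higher, with a median of -0.15, and 0 passed either threshold. Rheb (-0.44, SE 0.25) and Lamtor2 (-0.41, SE 0.30) were lowest, and Rragb and Slc38a9 (both 0.21) were highest. The 4 MiT/TFE factors had a median of -0.10, with Tfec at -0.35 (SE 1.28), Tfe3 at -0.19 and Mitf at 0.20.

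Of 21 lysosomal enzymes and membrane proteins, 16 had a negative and 5 a positive log2 fold change (median -0.13), and 12 were lower within both letters, as were 27.6% of all tested genes. By edgeR 0 passed an adjusted p of 0.05 and 1 (Lamp1) an unadjusted p of 0.05, and DESeq2 gave the same counts. Of all tested genes, 1.67% passed an unadjusted p of 0.05 by edgeR. Lamp1, an abundant protein of the lysosomal membrane, had 1210 and 993.6 CPM in shCTR A and B and 712.7 and 607.4 CPM in shMettl14 A and B (log2 fold change -0.74, SE 0.21, edgeR adjusted p = 1). Ctsz, a lysosomal cathepsin, had 374.8, 376.4, 294.5 and 224.0 CPM (-0.54, SE 0.22). In both, each shMettl14 library was below each shCTR library, as in 7 of the 21 genes and in 13.3% of all tested genes. Ctsd, an aspartic cathepsin, had a positive difference (0.24, SE 0.49) and ran from 467.1 CPM in shCTR B to 1264 CPM in shCTR A, so that the shCTR libraries enclosed both shMettl14 values.

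**Figure D5:**
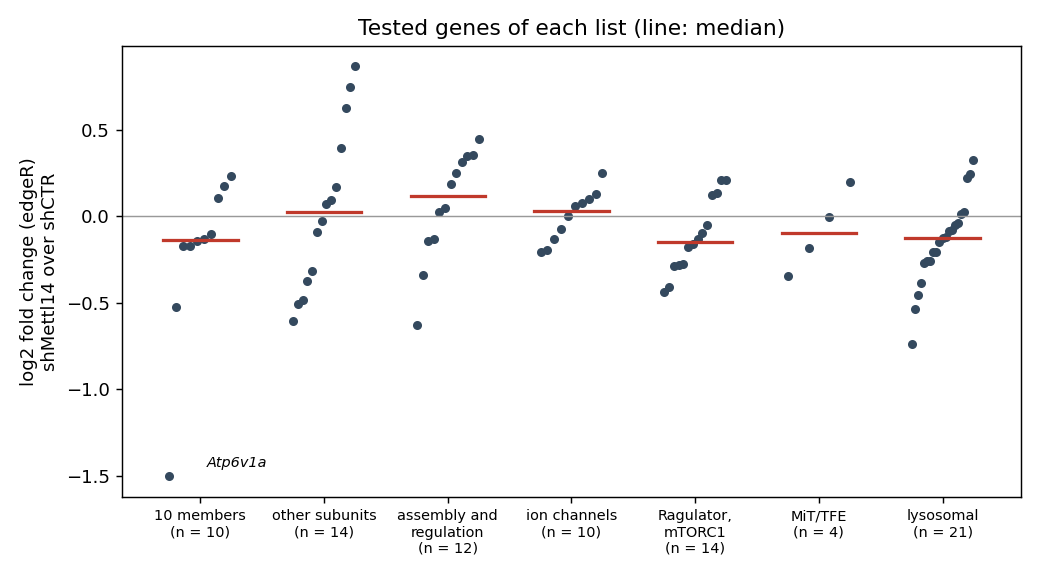
Log2 fold change from edgeR, shMettl14 over shCTR (y axis), of each tested gene in the 10 members, the other subunits and 5 related lists (x axis), with a red line at each median. Atp6v1a at -1.50 is the lowest of the plotted genes, and the medians lie between -0.15 and 0.12.

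The genes whose profile over the 4 libraries was most like that of Atp6v1a were sought among 9097 other genes with a mean of at least 10 CPM, by the Euclidean distance between centered log2 CPM. The 5 nearest were Cbfb (distance 0.227), the partner of RUNX transcription factors, Kdelr2 (0.431), a receptor that returns proteins to the endoplasmic reticulum, 1810058I24Rik (0.457), Chst12 (0.463), a chondroitin sulfotransferase, and Ankrd1 (0.475), a muscle ankyrin repeat protein. Cbfb had 48.9 and 51.2 CPM in shCTR A and B and 18.6 and 20.5 CPM in shMettl14 A and B. The nearest subunit gene among the members was Atp6v1d, at rank 344 (distance 1.10), and the farthest was Atp6v1g1, at rank 7872 (1.86). With 4 libraries and a choice of Atp6v1a on its fall, the list names other genes with a low shMettl14 level and says nothing of a shared control.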

How the data were processed

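Poly-A RNA of 4 libraries was sequenced from both ends with a strand-specific kit. The authors mapped the read pairs to mm10 (GRCm38, Ensembl annotation) with STAR, counted them per gene with featureCounts, and deposited raw counts for 48587 gene symbols. Whether counting used strand, or kept reads with several places, is not given in the sources used here. Genes were kept with filterByExpr (18916) and fitted with edgeR 4.0.16 (TMM, robust quasi-likelihood, group only) in R 4.3.3, with p-values adjusted by Benjamini-Hochberg over all tested genes. The SE was taken as the size of the fold change (log2) over the root of the F statistic. Ratios within letters used log2 CPM with a prior count of 2. With 2 libraries a group an exact permutation test cannot go below 0.333, so none was run. Exon lengths and overlaps came from GENCODE M21, copies from BLAST+ 2.17.0 and promoters from RefSeq. Named genes are the 10 members, all other subunits, the 2 largest rises and falls in each related list (mean of at least 1 CPM), Mettl14 and the 5 nearest profiles. A gene that this rule covers is not reported here. The members and lists were chosen with earlier results of these data known. Alternatives were RLE and upper-quartile factors, testing every gene with a count, a filter of 10 counts per library, a prior count of 0.5, DESeq2 1.42.0, the letters as a replicate block and each library left out. The fits were tested on simulated data.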

Additional observations from a re-analysis of the deposited data

How the results depend on the processing

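The count of the 9 tested members past an adjusted p of 0.05 was 0 in all 10 alternative fits, as were those of the other subunits and of the related genes. At an unadjusted p under 0.05, 0 of the 9 passed in the edgeR fit on all 4 libraries without a block, where 1.67% of all tested genes passed. That count did not stay the same in every fit without a single library. Such counts are not given, because a group then has a lone library. The median log2 fold change of the 10 members was -0.15 to -0.12 in the fits on all 4 libraries and -0.21 to 0.10 without single libraries. That of the other subunits, 0.02, was -0.30 with at least 10 counts in every library, which drops rare paralogs, and -0.20 to 0.27 without single libraries. Atp6v1a kept its direction, at -1.60 to -1.40 without single libraries.

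No label says that libraries of 1 letter share a culture. Deviations of same-lettered libraries from their group means correlated at 0.58. With 2 libraries a group both letters must give the same correlation, so this is 1 value. With the letters as a replicate block, 9 of 18916 genes passed an adjusted p of 0.05 (Mettl14 among them, at 0.00393), against 0 of 18916 without it and 5 of 29127 with DESeq2. Under that replicate block 1 of the 9 members passed an unadjusted p of 0.05 (Atp6v1d), with a lowest adjusted p of 0.36, and the median of the other subunits was -0.047. Of all tested genes, 10.3% then passed an unadjusted p of 0.05.

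Some signs turned when a library was left out, a fit in which the lone library of a group is assumed to vary like the other group, and the cause was not tested. The ranges were -0.024 to 0.25 for Atp6v1b2, -0.39 to 0.18 for Atp6v1e1, -0.52 to 0.49 for Atp6v1f, -0.12 to 0.71 for Atp6v1g1, -0.15 to 0.59 for Atp6v1h and -0.34 to 0.017 for Atp6v0d1. For other subunits they were -0.90 to 0.11 for Atp6v1g2, -0.28 to 0.28 for Tcirg1, -0.67 to 0.030 for Atp6v0b, -0.58 to 1.29 for Atp6v0c, -1.79 to 0.46 for Atp6v0e2 and -0.075 to 0.47 for Atp6ap2. For related genes they were -0.63 to 0.43 for Clcn5, -0.10 to 0.41 for Clcn3, -0.026 to 0.42 for Slc38a9, -2.53 to 1.77 for Tfec and -0.31 to 1.14 for Ctsd. Of the genes that kept their sign, those that moved by over 1.5 times included Atp6v1c1 (-0.27 to -0.0095), Atp6v1d (-0.73 to -0.28), Atp6v0a1 (-0.31 to -0.017), Atp6v0e (-0.85 to -0.39), Rheb (-0.67 to -0.17), Lamtor2 (-0.79 to -0.098), Dmxl1 (0.010 to 0.80) and Dmxl2 (0.14 to 0.83).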
